A study of Mus musculus with 12 samples.

Results

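The response of wild-type dendritic cells to curdlan was described from 6 of the 12 arrays of the series, the members being the arrays whose title and genotype label read wild type. They form 2 groups of 3: cells left untreated and cells given curdlan for 6 h. Both groups were dendritic cells raised from mouse bone marrow for 7 days in medium with GM-CSF at 200 ng/ml, taken from suspension and selected with beads against CD11c, at a stated purity above 95%, and 100 ng of total RNA went into each array. No allele, transgene or agent other than curdlan is named for these groups, but the strain label is B6.129P2-Il2tm1Hor/J on all 12 arrays, so wild type rests on the genotype label and the title. The other 6 arrays are IL-2 knockout cells, 3 untreated and 3 given curdlan for 6 h, and were used for the common estimate of spread and for 1 comparison at the end. The curdlan dose, the age and sex of the animals and whether replicates came from separate animals go unstated in the labels, so a p-value reflects only how far these samples spread, which may be technical.

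Curdlan is a particulate beta-glucan of the kind found in fungal cell walls. It binds Dectin-1, a C-type lectin receptor encoded by Clec7a, whose cytoplasmic tail is phosphorylated by Src kinases and recruits the kinase Syk. Syk signals through phospholipase C and calcium to NFAT, and through the adaptor complex of Card9, Bcl10 and Malt1 to NF-kB, which drives cytokine genes and its own inhibitors. Dendritic cells can also make type I interferon, which binds Ifnar1 and Ifnar2 and acts through the kinases Jak1 and Tyk2 on a complex that holds Stat2 and Irf9. That complex binds the interferon-stimulated response element in the promoters of antiviral genes. Maturing dendritic cells present antigen, raise costimulatory molecules and stop dividing.

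Values are log2 intensities made with RMA, 1 per probe set and array. Each probe set has its own scale, so a gene was compared only with itself. Array medians lay between 6.59 and 6.64, and Pearson's r across 19937 genes was 0.995 to 0.998 within a group and 0.985 to 0.992 between treated and untreated arrays. The first principal component of the 6 arrays held 68.9% of the variance and separated the groups, and the second held 17.3%. In a limma fit over 19937 genes, 3899 (19.6%) passed an adjusted p of 0.05. Of these, 1449 (7.27%) were higher with curdlan and 2450 (12.3%) lower. The rises were larger than the falls: 234 genes rose by over 1 on the log2 scale and 114 fell by over 1, 49 rose by over 2 and 2 fell by over 2. All 3 treated arrays lay above all 3 untreated arrays in 17.0% of the genes tested and below them in 21.0%, so the groups did not overlap in 38.0%. Centring each array on its median gave 1542 higher and 2086 lower.

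The labelled cell type was checked first. All 10 conventional dendritic cell markers lay above the lower quartile of the arrays in both groups, among them Itgax, which encodes CD11c, and the MHC class II genes H2-Aa and H2-Ab1. The 7 macrophage markers did too, so these genes do not separate the labelled cells from macrophages. Means per array over a list ranged from 10.9 to 11.2 for the dendritic cell markers and from 11.9 to 12.2 for the macrophage markers. Of the former 2, Ccr7 and Zbtb46, were higher (1 without each of pairs 1 and 2) and 1, Kmo, lower (0 without each of untreated arrays 1, 2 and 3, curdlan arrays 1 and 3 and pairs 1, 2 and 3), and of the latter 2, Fcgr1 and Mertk, were higher (1 without pair 1). Of the markers of neutrophils, T cells, B cells, NK cells, mast cells and basophils, eosinophils and erythroid cells, 0 of 40 passed the test in either direction (3 with the replicate number as a block: 1 NK cell marker higher and 2 mast cell and basophil markers lower), with array means of 4.81 to 6.63 over these lists. Of 5 plasmacytoid dendritic cell markers 2, Bst2 and Tcf4, were higher and 0 lower, and the array means of that list were 7.35 to 7.36 untreated and 7.84 to 7.90 with curdlan. In the stroma and endothelium list, Cdh5, which encodes VE-cadherin, rose by 0.66 (adjusted p 0.00193) and Kdr, which encodes a VEGF receptor, by 1.70, a call lost without each of pairs 2 and 3 (adjusted p 0.0599 to 0.061), while the array means of that list were 6.43 to 6.60 untreated and 6.76 to 6.99 with curdlan. Collagen and decorin genes of that list did not pass. The part of other cells in the results was not tested. In RNA from a whole sample, fewer cells of a type and less RNA per cell cannot be told apart.

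In what follows a gene is said to have risen or fallen where it passed the limma test at an adjusted p of 0.05 over all 19937 genes, and single numbers after "by" or in parentheses are log2 differences, treated minus untreated. Unless stated, the gene kept that call when any 1 wild-type array, or both wild-type arrays that share a replicate number (here called a pair), were left out. Where leaving arrays out moved the count of a list by over 1.5 times, the counts, or the genes whose calls were lost, are given. The shares over all genes, 7.27% higher and 12.3% lower, are the background for each list. The lists were chosen with earlier results of these data known and carry no test of their own. The 30 largest rises and the 30 largest falls were picked among genes whose groups do not overlap. For those genes the separation of the groups was fixed by that choice and adds nothing to the test.

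Genes of the Dectin-1 pathway itself changed in both directions. Of 25 measured members 3 (12%) were higher and 6 (24%) lower, with a median of 0.00 against 0.02 over all genes. The receptor gene Clec7a gave log2 values of 12.54, 12.50 and 12.54 untreated and 12.51, 12.60 and 12.59 with curdlan, with the groups overlapping (0.04 ± 0.06, SE, adjusted p 0.662). The adaptor gene Card9 gave 10.05, 9.89 and 9.81 untreated and 9.19, 9.22 and 9.20 with curdlan. Every treated Card9 value lay below every untreated one, and the gene fell by 0.71 (SE 0.10, adjusted p 0.000614). Of its partners, the protease gene Malt1 rose by 0.32 and Bcl10 did not pass (0.23). The kinase genes Src (0.72) and Syk (0.22) were called higher, but Src lost its call without pair 1 (adjusted p 0.0575) and Syk without each of untreated array 2, curdlan array 1 and pairs 1 and 2 (adjusted p 0.0728 to 0.127). The calcium arm fell at its transcription factor Nfatc2 (-0.63, adjusted p 0.00227), while the calcineurin subunit genes Ppp3ca, Ppp3cb and Ppp3r1 did not pass. Inpp5d, which encodes the inhibitory phosphatase SHIP1, fell by 0.47. The 3 other falls were less firm: Vav3 (-0.59) lost its call without each of pairs 1 and 2 (adjusted p 0.0538 to 0.0718), Nfatc1 (-0.35) without each of untreated array 2, curdlan array 1 and pairs 1 and 2 (adjusted p 0.0537 to 0.104), and Btk (-0.27) without each of untreated arrays 2 and 3, curdlan arrays 1 and 2 and pairs 1 and 2 (adjusted p 0.0548 to 0.163). The 3 higher calls were 5 with the replicate block and 1 without pair 1, and the 6 lower calls 3 without each of pairs 1 and 2. Bcl10 passed with the replicate number as a block (adjusted p 0.0223).

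Other C-type lectin genes changed more than Clec7a. Of 32 measured, 10 were lower and 3 higher, and the lower ones held both falls of over 2 in the whole comparison. Cd209a, the mouse gene for DC-SIGN, which binds mannose and fucose on microbes (on chromosome 8), gave 11.05, 11.53 and 10.83 untreated and 8.16, 8.35 and 8.31 with curdlan. Every treated value lay below every untreated one, a 7.29-fold fall (-2.87 ± 0.27, SE, adjusted p 3.87e-05). Its neighbour Cd209c (on chromosome 8) gave 8.81, 9.57 and 8.75 untreated and 6.35, 6.86 and 6.67 with curdlan, again with no overlap (-2.42, adjusted p 0.000321). The third family member that moved, Cd209d, fell by 0.66, whereas Cd209b and Cd209e did not pass. The galactose-binding lectin genes Clec10a and Mgl2, which are near copies of each other and may share probe signal, both fell (-1.24 and -0.64). Clec4b1 fell by 0.97 and Clec4a2, which encodes an inhibitory receptor, fell by 0.52. Klrb1b (-1.30), an NK receptor family gene, lost its call without each of untreated array 2 and pairs 1, 2 and 3 (adjusted p 0.0509 to 0.0882). Among the rises were those of Clec4e, which encodes Mincle, a receptor of fungal and mycobacterial glycolipids that signals through Syk like Dectin-1 (1.39, adjusted p 3.87e-05), and of Ly75, which encodes the endocytic receptor DEC-205 (0.95). Clec4n, which encodes Dectin-2, and Mrc1, the mannose receptor gene, did not pass (0.00 and -0.51). Mrc1 passed with the replicate number as a block (adjusted p 0.000214).

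The genes of interferons themselves were at most weakly changed. Of 20 interferon and interferon receptor genes, 1 was higher (2 with the replicate block) and 1 lower. The gene of interferon beta, Ifnb1, gave 4.87, 4.73 and 4.80 untreated and 5.02, 4.78 and 4.65 with curdlan, all under every array's lower quartile (5.30 to 5.49), and the groups overlapped (0.02, adjusted p 0.933). The interferon alpha genes measured did not pass, nor did Ifng (0.10), and earlier times were not measured. On the receptor side Ifngr1, the ligand-binding chain of the interferon gamma receptor, fell by 0.73 (adjusted p 0.000252), while Ifngr2 and the kinase genes Jak1 and Tyk2 did not pass. Ifnar1 was 0.19 higher, a call lost without each of untreated arrays 1 and 2, curdlan arrays 1 and 3 and pairs 1, 2 and 3 (adjusted p 0.0724 to 0.204), after quantile normalisation (adjusted p 0.0671) and in a fit of the 6 wild-type arrays alone (adjusted p 0.0649). Tyk2 passed with the replicate number as a block (adjusted p 0.00938).

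Transcription factor genes of the interferon response rose. Of 8 IRF genes 4 were higher and 0 lower, and of 6 measured STAT genes 5 were higher and 0 lower. Irf7, which amplifies type I interferon production (on chromosome 7), gave 8.68, 8.50 and 8.39 untreated and 11.94, 11.85 and 11.81 with curdlan. The treated arrays stood over 3 log2 units above the untreated ones, a 10.2-fold rise (SE of the log2 change 0.20, adjusted p 1.58e-06). Irf1, which is induced by interferon gamma and NF-kB, rose by 1.19, Irf8, a factor of dendritic cell development, by 0.96, and Irf9, the DNA-binding partner of Stat2, by 0.54. The constitutive factor gene Irf3 did not pass (-0.09, and 0.01 after quantile normalisation). Stat2 rose by 1.37, and Stat5a and Stat5b, which act downstream of GM-CSF and IL-2 receptors, by 1.21 and 0.63. Stat4, the IL-12 receptor's factor (1.15), lost its call without each of untreated arrays 1, 2 and 3, curdlan arrays 1 and 3 and pairs 1, 2 and 3 (adjusted p 0.052 to 0.131), and Stat3 (0.39) without each of pairs 1 and 2 (adjusted p 0.0506 to 0.0706). The 5 STAT calls were 3 without each of pairs 1 and 2.

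Sensors of foreign nucleic acid rose in 10 of 22 genes and fell in 1 (2 with the replicate block). The cytosolic RNA helicase genes led: Ddx60 gave 7.34, 7.44 and 7.37 untreated and 9.90, 9.75 and 10.00 with curdlan. Its groups stood over 2 log2 units apart (2.50, adjusted p 3.32e-06). Ifih1, which encodes MDA5, rose by 2.16, Dhx58, which encodes LGP2, by 2.10, and Ddx58, which encodes RIG-I, by 1.72. The Z-nucleic acid sensor gene Zbp1 rose by 2.02 and the endosomal RNA receptor gene Tlr3 by 1.57. The shared adaptor of the helicases, Mavs, fell by 0.43 (adjusted p 0.00409). The DNA sensor gene Cgas rose by 0.43 and the kinase gene Tbk1 by 0.37, while Sting1 did not pass (-0.07).

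Of antiviral effectors most rose. Of 32 measured, 27 were higher and 0 lower (1 with the replicate block), with a median of 1.61. The IFIT genes encode proteins that bind viral RNA and lie side by side on chromosome 19. Ifit1 (on chromosome 19) gave 8.47, 8.47 and 8.63 untreated and 12.22, 12.03 and 12.09 with curdlan. The groups did not overlap (12.1-fold, adjusted p 8.2e-08). Ifit3 and Ifit3b are near-identical copies, so their probe sets may read each other. Ifit3b gave 4.49, 4.39 and 4.68 untreated and 9.05, 8.86 and 8.97 with curdlan. Its untreated values lay under every array's lower quartile, so the change is written as at least 21.7-fold. Rsad2, which encodes viperin, an enzyme that makes a chain-terminating nucleotide, gave 10.00, 9.87 and 10.01 untreated and 13.10, 13.04 and 13.12 with curdlan. Cmpk2, its neighbour (on chromosome 12) and a mitochondrial nucleotide kinase gene, rose by 3.50, beside 3.13 for Rsad2. The exonuclease gene Isg20 gave 7.86, 7.87 and 7.87 untreated and 11.37, 11.44 and 11.23 with curdlan. The treated Isg20 values stood over 3 units above the untreated ones (adjusted p 6.51e-06). The oligoadenylate synthetase genes, whose product activates RNase L, rose by 2.78 for Oas3, 2.09 for Oas2 and 1.62 for Oas1a. The Mx GTPase genes Mx2 and Mx1 rose by 2.59 and 1.67. Smaller rises were those of Trex1, a DNA exonuclease gene (1.33), Bst2, which encodes tetherin (1.25), Eif2ak2, which encodes PKR (1.11), Adar, an RNA-editing enzyme gene (0.88), and Samhd1, a nucleotide hydrolase gene (0.42). Of the 5 that did not pass, Ch25h, which makes 25-hydroxycholesterol, stood at 1.17 and the membrane protein genes Ifitm1 and Ifitm2 at 0.01 and 0.16. Ch25h passed with the replicate number as a block (adjusted p 0.000642).

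Enzymes that attach ubiquitin-like ISG15 or ADP-ribose rose in 22 of 23 genes, with a median of 1.12. The ISG15 conjugation chain moved at each measured step: the activating enzyme gene Uba7 by 1.16, the conjugating enzyme gene Ube2l6 by 1.62, the ligase gene Herc6 by 2.19 and the deconjugating protease gene Usp18, which also restrains the interferon receptor, by 1.79. Isg15 was not tested here. Of the poly-ADP-ribose polymerase family, Parp14 rose by 1.62, Parp12 by 1.57 and Parp10 by 1.16, and the partners Parp9 and Dtx3l by 1.03 and 1.03. Tiparp was the member that did not pass (0.00).

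PYHIN and Schlafen genes form clusters on chromosomes 1 and 11. The former encode DNA-binding proteins of the interferon response and the latter regulators of growth and RNA. Of 17 measured, 15 rose and 0 fell, with a median of 1.74. Ifi205 gave 8.61, 8.85 and 8.92 untreated and 12.79, 12.87 and 12.86 with curdlan, Ifi213 rose by 3.84, Ifi206 by 3.56 and Ifi214 by 3.25. Slfn4 rose by 3.84 and Slfn1 gave 8.73, 8.44 and 8.38 untreated and 11.37, 11.16 and 11.07 with curdlan. The other Schlafen rises were smaller, down to 0.64 for Slfn2. Members of both families are close copies, so signal may be shared between probe sets. Of the guanylate-binding and immunity-related GTPases, which act on the membranes of vacuoles that hold microbes, 9 of 10 rose. Gbp4 gave 7.07, 7.53 and 7.60 untreated and 10.25, 10.04 and 10.27 with curdlan, a 6.9-fold rise (adjusted p 8.92e-05). Iigp1 gave 5.22, 5.44 and 5.01 untreated and 7.85, 7.93 and 8.27 with curdlan. Its untreated mean lay below the lower quartile of the arrays, so its rise is written as at least 6.94-fold. Gbp5, which promotes inflammasome assembly, rose by 2.01 and Irgm1, a regulator of the other GTPases, by 2.00. Gbp2b, the exception, stood at -0.80 and did not pass.

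**Figure D1:**
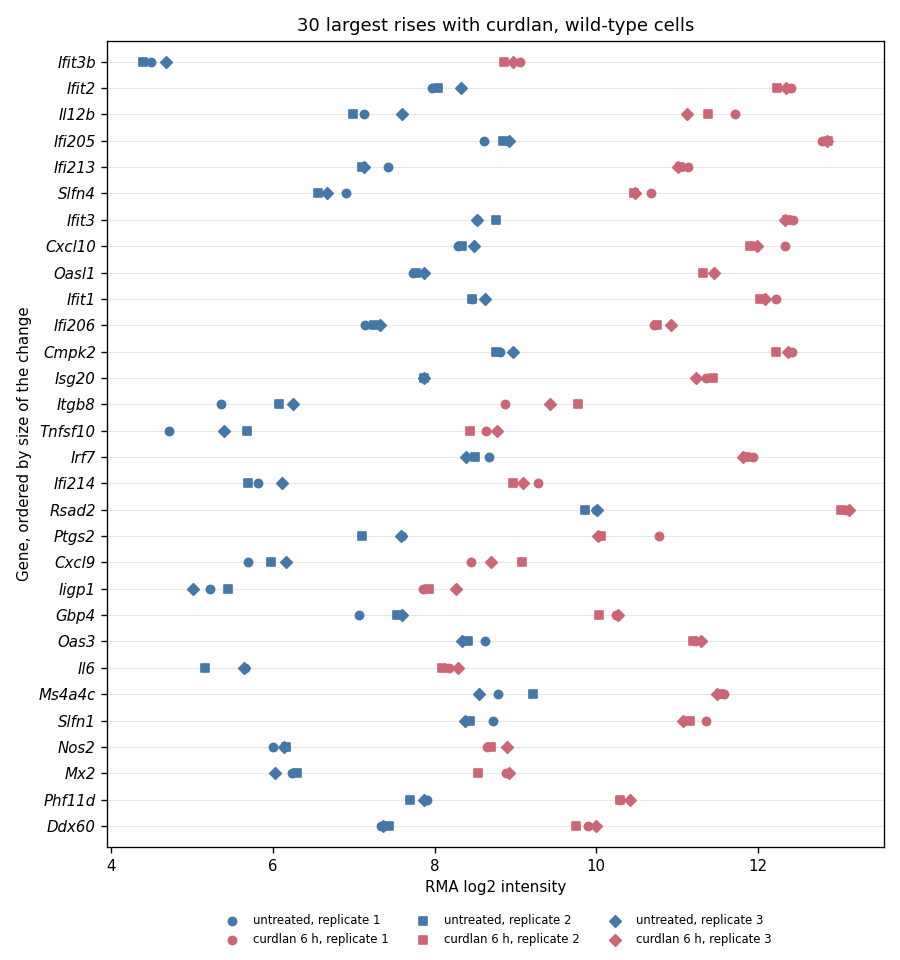
RMA log2 intensity (horizontal axis) of the 30 genes with the largest rise among those whose groups do not overlap, in each of the 6 wild-type arrays (blue untreated, red curdlan for 6 h, marker shape the replicate number). The separation in each row was fixed by that choice, and the mean log2 difference runs from 4.44 for Ifit3b down to 2.50 for Ddx60.

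Since many of these genes rose together, their promoters were searched for the interferon-stimulated response element, written as GAAA, any 2 bases and GAAA on either strand. The windows are RefSeq promoters on the GRCm38.p6 build, 250 bases before to 50 after each listed start. The motif was found in 3.44% of all 32851 promoters of the table, in 3.06% of those of genes not called and in 2.71% of those of genes called lower. It was found in 6.3% of the promoters of genes called higher, in 18.4% where the rise was over 1 and in 39.5% (17 of 43) where it was over 2. A match is a description of letters, not a site or a cause. By family it was in 57.9% of the PYHIN and Schlafen promoters, in 83.3% (5 of 6) of the GTPase promoters and in 31.4% of the antiviral effector promoters. The GTPase promoters came from 5 of the 10 genes of that list. Its largest rises, Iigp1, Gbp4 and Gbp9, had no promoter in the table, and Gbp2b, which did not pass, held the motif. Of the 30 genes with the largest rise, 26 had a promoter in the table and 11 of these held the motif. The promoter of Cxcl10, a chemokine gene that both NF-kB and interferon signals are known to drive, is shown whole, since its rise is among the largest. Stretches of 60 bases are shown for 7 other genes to let the motif be compared in its context. All are 5′ to 3′ on the gene's strand, with the motif in capitals.
Cxcl10 (chr5:92348840-92349139, minus strand): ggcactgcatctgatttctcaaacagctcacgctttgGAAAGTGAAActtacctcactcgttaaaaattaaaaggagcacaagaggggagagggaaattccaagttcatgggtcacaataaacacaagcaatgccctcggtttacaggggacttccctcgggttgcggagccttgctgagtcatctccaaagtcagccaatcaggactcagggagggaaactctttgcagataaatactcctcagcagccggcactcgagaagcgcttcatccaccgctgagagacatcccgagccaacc
Ifit3 (chr19:34583348-34583407, plus strand): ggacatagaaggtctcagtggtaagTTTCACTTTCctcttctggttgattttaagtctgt
Ifit3b (chr19:34607744-34607803, plus strand): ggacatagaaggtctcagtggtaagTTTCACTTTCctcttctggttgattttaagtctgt
Ifit1 (chr19:34640760-34640819, plus strand): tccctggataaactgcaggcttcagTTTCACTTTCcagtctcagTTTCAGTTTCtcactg
Ifi205 (chr1:174031855-174031914, minus strand): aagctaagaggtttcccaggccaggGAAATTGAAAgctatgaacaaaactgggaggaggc
Ifi206 (chr1:173491324-173491383, minus strand): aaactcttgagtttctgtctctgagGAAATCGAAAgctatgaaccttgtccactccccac
Rsad2 (chr12:26456538-26456597, minus strand): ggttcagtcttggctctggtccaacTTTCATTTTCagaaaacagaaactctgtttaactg
Oas3 (chr5:120777700-120777759, minus strand): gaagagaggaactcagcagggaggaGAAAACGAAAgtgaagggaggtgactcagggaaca
The match in Cxcl10 starts 213 bases before the listed start. The stretches of Ifit3 and Ifit3b are the same in all 60 bases. Ifit1 holds a pair of matches, at 104 and 85 bases before the start, and is the only stretch shown with more than 1.

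**Figure D2:**
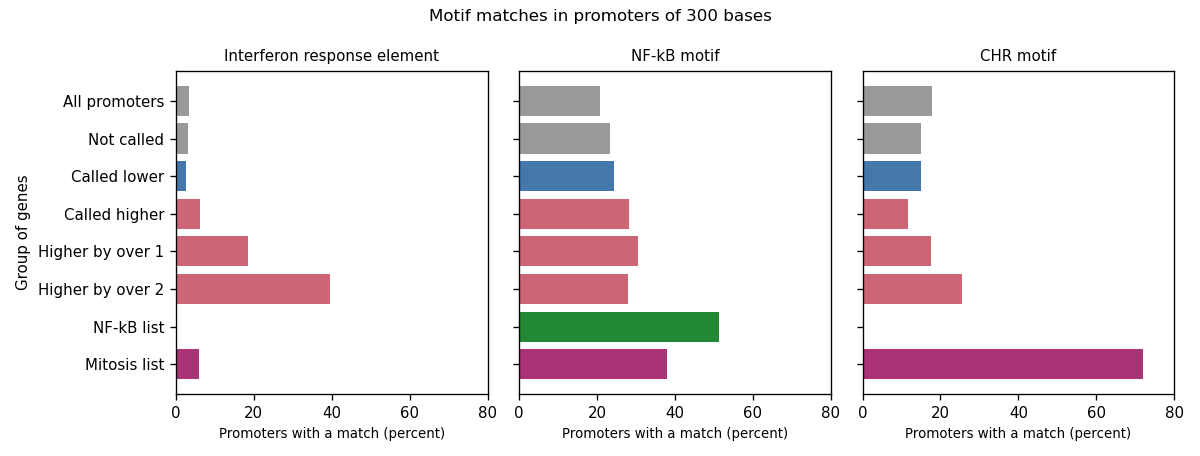
Share of 300-base promoters (horizontal axes, percent) with at least 1 match on either strand to the interferon-stimulated response element, the NF-kB motif and the CHR motif, by group of genes (vertical axis). The first motif rises from 2.71% in genes called lower to 39.5% in genes higher by over 2, the NF-kB motif stands at 24.3% in genes called lower, 27.9% in genes higher by over 2, 38.0% in the mitosis list and 51.4% in the NF-kB list, and the CHR motif at 72.0% in the mitosis list.

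Of the 5 IL-12 family genes 4 were higher. Il12b, the p40 chain shared by IL-12 and IL-23 (on chromosome 11), gave 7.13, 6.99 and 7.60 untreated and 11.72, 11.38 and 11.13 with curdlan. The treated arrays were over 3 units higher in each (adjusted p 0.00011). The IL-23 chain gene Il23a rose by 0.67 and the IL-27 chain gene Ebi3 by 0.67, while the IL-12 chain gene Il12a did not pass (0.20). Il27 (0.83) lost its call without pair 2 (adjusted p 0.0546). Il6 gave 5.66, 5.16 and 5.64 untreated and 8.18, 8.09 and 8.29 with curdlan. Its untreated values lay around the lower quartile of the arrays and the rise was 6.53-fold (adjusted p 1.06e-05). Il15, which sustains NK and memory T cells, rose by 1.71 and its receptor alpha chain gene Il15ra, which presents it to other cells, by 1.58. Il2 rose by 1.77 (adjusted p 0.000159). The gp130 ligand genes Osm and Lif rose by 0.86 and 0.75. Over the 17 genes of that list 8 were higher, but 5 without pair 2, and Il10 (0.53) lost its call without each of pairs 2 and 3 (adjusted p 0.063 to 0.104).

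In the IL-1 family 7 of 12 genes rose. Il1b gave 10.07, 9.18 and 9.65 untreated and 11.75, 11.20 and 10.94 with curdlan, with no overlap (1.66, adjusted p 0.000784), and Il1a rose by 0.74. Il1f6, which encodes IL-36 alpha and was below the lower quartile untreated, had a rise written as at least 2.66-fold. The IL-36 gamma gene Il1f9 (1.34) lost its call without pair 2 (adjusted p 0.0579), the receptor antagonist gene Il1rn (0.32) without each of pairs 2 and 3 (adjusted p 0.0524 to 0.0692). The 7 calls were 3 without pair 2 and 4 without pair 3. Of 21 growth factor genes 4 rose, among them the endothelin gene Edn1 (1.97), Inhba, which encodes activin A (1.41), and Hbegf (0.93). The colony-stimulating factor genes Csf1, Csf2 and Csf3 did not pass (0.33, -0.13 and 0.17). Csf1 passed with the replicate number as a block (adjusted p 0.0065).

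TNF superfamily ligand genes rose in 9 of 15. The death ligand gene Tnfsf10, which encodes TRAIL (on chromosome 3), gave 4.71, 5.68 and 5.39 untreated and 8.64, 8.44 and 8.77 with curdlan. Its untreated mean lay under every array's lower quartile, though the value 5.68 lay above all of them. By the rule used here the rise is written as at least 10.2-fold (adjusted p 6.4e-05). The T cell costimulators Tnfsf4 (OX40 ligand), Cd70 and Tnfsf9 (4-1BB ligand) rose by 1.83, 1.64 and 1.26. Tnfsf15 rose by 1.38 and Tnf by 0.83. The B cell factor gene Tnfsf13b and the lymphotoxin beta gene Ltb did not pass (-0.21 and -0.35). On the receptor side 6 of 20 genes were higher (3 without pair 2). Cd40, the receptor through which T cells license dendritic cells, gave 8.97, 9.67 and 9.57 untreated and 11.87, 11.76 and 11.68 with curdlan. All treated values lay above all untreated ones (5.17-fold, adjusted p 0.000273). The death receptor gene Fas rose by 0.90 and Tnfrsf9 by 0.81. Ltb passed with the replicate number as a block (adjusted p 0.0062).

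Chemokine genes rose in 7 of 16 CXC members and 5 of 18 CC members, with 0 falls in both. Cxcl10, a ligand of CXCR3 on activated T and NK cells, gave 8.28, 8.33 and 8.49 untreated and 12.34, 11.90 and 11.99 with curdlan. The groups stood over 3 units apart (13.1-fold, adjusted p 3.8e-05). The other CXCR3 ligand measured as changed, Cxcl9, gave 5.69, 5.97 and 6.16 untreated and 8.45, 9.09 and 8.70 with curdlan and lost its call without each of pairs 1 and 2 (adjusted p 0.0589 to 0.0701). Cxcl11 did not pass (0.35). The neutrophil attractants Cxcl2, Cxcl3 and Cxcl1 rose by 2.00, 1.35 and 0.56. The 7 calls were 4 without each of pairs 1 and 2. Ccl1, a CCR8 ligand, rose by 1.99, Ccl12 by 1.61 and Ccl4 by 0.80, whereas Ccl3 did not pass (0.06), nor did the CCR7 ligand Ccl19 (0.25) or Ccl17 (0.05). Ccl5 (1.05) lost its call in all 9 fits with arrays left out, without each of untreated arrays 1, 2 and 3, curdlan arrays 1, 2 and 3 and pairs 1, 2 and 3 (adjusted p 0.0563 to 0.226), and after quantile normalisation (adjusted p 0.0633). Of 23 receptors for such ligands 5 were higher (3 without each of pairs 1 and 2), and 2 lower (1 without each of untreated arrays 2 and 3, curdlan arrays 1, 2 and 3 and pairs 2 and 3). Ccrl2, which binds chemerin, rose by 1.50 and S1pr3, a sphingosine phosphate receptor gene, by 1.20. Ccr7, which guides mature dendritic cells to lymph nodes, was higher by 0.99 and lost its call without each of pairs 1 and 2 (adjusted p 0.0576 to 0.0644). Ccr2, a receptor of monocytes, fell by 0.56.

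Cytokine receptor genes split, with 10 of 35 higher (4 without pair 2 and 6 without each of pairs 1 and 3), and 6 lower. Lifr, the receptor of LIF (on chromosome 15), gave 8.43, 9.12 and 8.85 untreated and 6.80, 7.41 and 7.48 with curdlan. Every treated value lay below every untreated one (-1.57, adjusted p 0.000723), while its ligand gene Lif rose by 0.75. The other falls were those of the IL-18 receptor gene Il18r1 (-0.82), the TGF-beta receptor gene Tgfbr2 (-0.57), the IL-36 receptor gene Il1rl2 (-0.45) and the IL-6 receptor gene Il6ra (-0.44), besides the shared chain gene Il6st (-0.35), whose call was lost without each of untreated arrays 1 and 2, curdlan arrays 1, 2 and 3 and pairs 1, 2 and 3 (adjusted p 0.0599 to 0.17). Il13ra1 and Il1rap, a shared chain of IL-1 family receptors, rose by 0.57 and 0.50. The GM-CSF receptor genes Csf2ra and Csf2rb did not pass (-0.05 and 0.00).

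The measured genes of the NF-kB system rose at subunits and at inhibitors alike: 23 of 30 genes were higher and 0 lower, with a median of 0.49. The subunit gene Nfkb1, and Chuk and Traf3, were not measured. Nfkbia, the classical inhibitor that NF-kB itself induces (on chromosome 12), gave 11.13, 11.17 and 11.31 untreated and 12.19, 11.99 and 12.02 with curdlan. The groups did not overlap (0.86 ± 0.09, SE, adjusted p 8.29e-05). The other inhibitor genes Nfkbie, Nfkbib and Nfkbiz rose by 0.88, 0.82 and 1.07. Tnfaip3, which encodes the deubiquitinase A20, rose by 1.04 and its partner gene Tnip1 by 0.65. Of the subunits, Relb rose by 0.81, Nfkb2 by 0.69, Rel by 0.50 and Rela by 0.33. The adaptor genes Traf1, Traf6, Traf2 and Traf5 rose by 1.09, 0.68, 0.56 and 0.43. Cyld, another deubiquitinase gene, did not pass (0.04).

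A kappaB motif, written as GGGA and CC separated by any 4 bases on either strand, was found in 51.4% (18 of 35) of the promoters of this list against 20.7% of all promoters. Over the genes called higher its share was 28.1%, against 23.4% of genes not called and 24.3% of genes called lower. These shares lay close together. In the other lists searched its share ran from 16.7% for the GTPases to 46.2% for the CXC chemokines, with 38.0% for mitosis. A looser form, with any base for the A, was in 74.3% of the NF-kB list promoters and 74.0% of the mitosis promoters. It was in 63.6% of the ribosome biogenesis promoters, 31.6% of the PYHIN and Schlafen promoters and 50.8% of all promoters. In that form the NF-kB list did not stand apart from the mitosis list. Nfkbia is shown whole because it holds 2 matches to the first form, at 212 and 29 bases before the start. Another 4 members of the NF-kB list are shown over 60 bases, and the first form is in capitals.
Nfkbia (chr12:55492598-55492897, minus strand): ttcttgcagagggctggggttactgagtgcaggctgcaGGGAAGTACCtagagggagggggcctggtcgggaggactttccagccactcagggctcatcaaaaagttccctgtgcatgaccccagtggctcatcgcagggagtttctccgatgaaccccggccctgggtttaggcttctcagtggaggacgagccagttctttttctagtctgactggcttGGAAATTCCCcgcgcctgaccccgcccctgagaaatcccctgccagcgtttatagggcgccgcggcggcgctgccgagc
Nfkb2 (chr19:46304673-46304732, plus strand): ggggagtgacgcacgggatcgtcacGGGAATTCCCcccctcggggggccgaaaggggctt
Bcl3 (chr7:19822719-19822778, minus strand): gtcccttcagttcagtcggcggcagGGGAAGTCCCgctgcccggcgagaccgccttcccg
Rel (chr11:23771027-23771086, minus strand): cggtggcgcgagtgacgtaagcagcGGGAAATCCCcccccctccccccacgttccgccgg
Tnfaip3 (chr10:19012018-19012077, minus strand): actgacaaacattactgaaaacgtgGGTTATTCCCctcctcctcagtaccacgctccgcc
In Nfkb2, Bcl3 (a rise of 0.60) and Rel the match begins with a run of G and ends in a run of C.

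Negative feedback genes of cytokine and kinase signalling rose in 9 of 25 and fell in 2 (1 without each of untreated arrays 1 and 3, curdlan arrays 2 and 3 and pairs 1, 2 and 3). Socs3, which restrains gp130 and STAT3 signalling, rose by 1.22 (adjusted p 0.00154), and the MAP kinase phosphatase genes Dusp14, Dusp1, Dusp5 and Dusp16 rose by 1.02, 0.90, 0.61 and 0.49. Socs1 did not pass (0.52). Of 16 AP-1 genes 5 rose, led by Batf2 (1.06) and Maff (0.73), while Fos, Jun and Jund did not pass (-0.18, 0.02 and 0.02). Of 20 immediate early genes 9 were higher and 1, Klf4, lower (-0.71, with 3 lower under the replicate block), the latter call being lost without each of untreated arrays 1 and 2, curdlan arrays 1 and 3 and pairs 1, 2 and 3 (adjusted p 0.0681 to 0.187) and after quantile normalisation (adjusted p 0.0704). Among 43 transcription factors of dendritic cells and macrophages 16 were higher (9 without pair 1 and 10 without pair 2), and 5 lower (2 to 3 without each of untreated array 1, curdlan array 3 and pairs 1 and 2). Lower calls made up 11.6% of that list, near the share over all genes (12.3%). Pparg, a lipid-sensing nuclear receptor gene that GM-CSF induces, gave 10.94, 10.69 and 10.68 untreated and 9.80, 9.77 and 9.71 with curdlan. It fell by 1.01 (SE 0.17, adjusted p 0.0021), and the ETS family gene Ehf fell by 1.15. Tcf4, the factor of plasmacytoid dendritic cells, rose by 0.87, and with Bst2 it makes the 2 of 5 plasmacytoid markers that were higher; Cox6a2, Ccr9 and Siglech did not pass (0.28, 0.12 and 0.10). Nr4a2 rose by 0.79 and Zbtb46, a factor of conventional dendritic cells, by 0.44. Spi1, Irf4 and Batf3 did not pass (0.02, 0.34 and 0.13). Socs1, Fos and Irf4 passed with the replicate number as a block (adjusted p 0.0014, 0.0321 and 0.00135).

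Surface molecules of maturation rose in 15 of 27 genes and fell in 3 (1 without each of untreated array 3, curdlan array 1 and pairs 2 and 3). The share of falls, 11.1%, was near that over all genes (12.3%). The early activation gene Cd69 gave 9.52, 9.80 and 9.54 untreated and 11.56, 11.46 and 11.58 with curdlan. The groups did not overlap (1.91, adjusted p 0.000303). The CD28 ligand gene Cd86 rose by 1.03, Cd83 by 1.29 and the homotypic receptor gene Slamf1 by 1.65. Inhibitory ligands rose too: Cd274, which encodes PD-L1, by 0.62, Lgals9 by 0.74 and Cd200 by 0.69. The checkpoint gene Vsir, which encodes VISTA, went the other way and gave 11.42, 10.90 and 10.86 untreated and 10.20, 9.82 and 9.85 with curdlan. It fell by 1.10 (adjusted p 0.00089). Of 16 Toll-like receptor genes 4 were higher (1 to 2 without each of untreated arrays 2 and 3, curdlan array 1 and pairs 1, 2 and 3), of which Tlr3 held its call throughout. Tlr4 and Cd14 did not pass (-0.26 and 0.43). Of 36 Fc and scavenger receptors 9 were higher (5 without each of pairs 1, 2 and 3), and 4 lower (7 with the replicate block, 0 to 2 without each of untreated arrays 1 and 3, curdlan array 2 and pairs 1, 2 and 3). Here too the lower share, 11.1%, was near that over all genes. Siglec1, a sialic acid lectin gene induced by interferon, rose by 1.27, Scarf1 by 0.85 and the high-affinity IgG receptor gene Fcgr1 by 0.77. Tlr4 and Cd14 passed with the replicate number as a block (adjusted p 0.0212 and 0.0371).

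In antigen presentation, of 18 MHC class I processing genes 11 were higher and 1 lower, and of 16 class II genes 1 was higher and 1 lower (3 and 2 with the replicate block); the difference between these lists was not tested. Nlrc5, the transactivator of class I genes, gave 9.14, 9.71 and 9.56 untreated and 11.26, 11.26 and 11.31 with curdlan. The groups did not overlap (1.81, adjusted p 0.000155). The peptide transporter genes Tap1 and Tap2 rose by 1.21 and 0.65, the immunoproteasome genes Psmb9 and Psmb10 by 0.98 and 0.72, the proteasome activator genes Psme1 and Psme2 by 0.47 and 0.52, and the loading factor genes Tapbp and Tapbpl by 0.55 and 1.00. B2m did not pass (0.01). The other call in class I, Psme3 (-0.23), was lost without each of untreated array 1, curdlan arrays 1 and 2 and pairs 1, 2 and 3 (adjusted p 0.0526 to 0.144). The class II genes H2-Aa, H2-Ab1, H2-Eb1 and Cd74 and their transactivator gene Ciita did not pass (-0.02, -0.09, -0.02, -0.02 and 0.23). The class II calls, H2-Eb2 (1.11) and H2-DMa (-0.27), were lost without each of untreated arrays 1, 2 and 3, curdlan arrays 1 and 2 and pairs 1, 2 and 3 (adjusted p 0.0503 to 0.302), and without each of pairs 1 and 3 (adjusted p 0.0586 to 0.065).

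Inflammasome and lytic death genes rose in 8 of 22 (5 without each of pairs 1 and 2), and fell in 3 (1 without each of untreated arrays 2 and 3, curdlan array 1 and pair 2). Their share of lower calls, 13.6%, was near that over all genes (12.3%). The caspase gene Casp4, which senses cytosolic lipopolysaccharide, rose by 1.87, Casp1 by 0.68, the peptidoglycan receptor gene Nod1 by 1.04 and the necroptosis effector gene Mlkl by 0.88. Nlrp1b, which encodes an inflammasome sensor (on chromosome 11), gave 8.22, 8.51 and 8.25 untreated and 6.94, 7.09 and 7.22 with curdlan and fell by 1.24 (adjusted p 6.06e-05). Its pseudogene neighbour Nlrp1c-ps (on chromosome 11) fell by 1.31, and since the copies are alike their signals may be shared. Nlrp3 and Pycard did not pass (0.02 and -0.10). Of 27 BCL-2 family and caspase genes 4 (14.8%) were higher (2 without each of pairs 1 and 2), and 3 (11.1%) lower. The lower share was near that over all genes (12.3%). With only 2 calls left, the higher share came near its background (7.27%) too. The caspase-8 inhibitor gene Cflar rose by 1.14 and the survival gene Mcl1 by 0.29, while Bcl2 fell by 0.45 and the executioner gene Casp6 fell by 0.72. The death-promoting genes Bcl2l11, Bbc3 and Pmaip1 did not pass (0.17, 0.07 and 0.10).

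Adhesion genes were divided, with 7 of 29 higher and 5 lower (9 with the replicate block, 3 without each of untreated array 2, curdlan array 3 and pairs 1 and 2). Itgb8, which pairs with alpha v to activate latent TGF-beta (on chromosome 12), gave 5.35, 6.08 and 6.25 untreated and 8.87, 9.78 and 9.42 with curdlan. The values spread more within the groups than those of Irf7, yet the groups stood over 2 units apart (11-fold, adjusted p 9.34e-06). Its partner gene Itgav rose by 0.48, and Itga4 and Itga5 rose by 0.75 and 0.52. Itgb7, the beta chain of gut-homing integrins, fell by 0.95 and Itga1 fell by 0.71. Of the other chains, Itgae (-1.08) lost its call without each of untreated array 2, curdlan arrays 1 and 3 and pairs 1 and 2 (adjusted p 0.0598 to 0.108). Itgax, Itgam and Itgb2 did not pass (-0.04, -0.17 and -0.08). Cytoskeletal genes rose in 12 of 33 and fell in 1 (2 with the replicate block). The actin-bundling gene Fscn1, a mark of mature dendritic cells, rose by 1.24, Marcksl1 by 1.29 and the semaphorin gene Sema7a by 1.38, while the actin regulator gene Coro1a fell by 0.62. Of 35 genes of proteases, their inhibitors and coagulation 12 rose (7 without pair 1), and 0 fell (3 with the replicate block). The granzyme B inhibitor gene Serpinb9 rose by 1.89, Serpinb6b by 1.41, the protein C receptor gene Procr by 1.30, the membrane-anchored protease gene Mmp25 by 1.24 and the plasminogen activator gene Plat by 1.08. In the complement list, where 1 of 21 was higher and 1 lower (0 to 2 without each of untreated arrays 1, 2 and 3, curdlan arrays 1 and 3 and pairs 1, 2 and 3, and 2 and 7 with the replicate block), Cfb, the alternative pathway protease gene, rose by 1.73, and C1qa, C1qb and C1qc did not pass (-0.56, -0.27 and -0.45). Itgam, C1qa, C1qb and C1qc passed with the replicate number as a block (adjusted p 0.0471, 0.000212, 0.00454 and 0.000476).

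In metabolism, of 13 genes of arginine, itaconate and biopterin metabolism 6 were higher and 2 lower (0 to 1 without each of untreated arrays 1 and 2, curdlan array 1 and pairs 1, 2 and 3). Nos2, the inducible nitric oxide synthase gene (on chromosome 11), gave 6.00, 6.17 and 6.14 untreated and 8.65, 8.69 and 8.89 with curdlan. The groups stood over 2 units apart (6.25-fold, adjusted p 0.00237). Gch1, which makes the biopterin cofactor of that enzyme, rose by 1.27 and the arginine importer gene Slc7a2 by 0.79. Arg2, the mitochondrial arginase gene, rose by 1.02, whereas Arg1 did not pass (-0.23). Acod1, which makes itaconate, rose by 1.39. Among 23 eicosanoid genes 3 were higher and 5 lower (10 with the replicate block, 2 to 3 without each of untreated array 1, curdlan arrays 1 and 3 and pairs 1 and 2). The 3 rises were of prostaglandin genes. Ptgs2, the inducible cyclooxygenase gene (on chromosome 1), gave 7.60, 7.10 and 7.58 untreated and 10.78, 10.06 and 10.02 with curdlan, and the prostaglandin E synthase gene Ptges and receptor gene Ptger4 rose by 0.70 and 0.50. Replicate 1 gave the highest treated Ptgs2 value. Other prostanoid genes fell: the prostaglandin E receptor gene Ptger2 (-0.41) and the thromboxane synthase gene Tbxas1 (-0.40) were called lower, but Ptger2 lost its call without each of untreated arrays 1 and 3, curdlan arrays 1, 2 and 3 and pairs 1 and 3 (adjusted p 0.0529 to 0.114) and Tbxas1 without each of pairs 1 and 2 (adjusted p 0.0703 to 0.0737). In the leukotriene arm the hydrolase gene Lta4h and the receptor gene Cysltr1 fell (-0.67 and -0.34), and Alox5 did not pass (-0.94). The lipoxygenase gene Alox15 (-0.45) lost its call without each of untreated arrays 1 and 2, curdlan arrays 1 and 3 and pairs 1 and 2 (adjusted p 0.0779 to 0.208). Alox5 passed with the replicate number as a block (adjusted p 0.0002).

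Of 23 glycolysis genes 6 were higher (3 without each of pairs 1, 2 and 3), and 3 lower (0 without pair 1 and 1 without each of curdlan array 1 and pair 3). The share lower was near that over all genes (12.3%). The hexokinase gene Hk2 rose by 0.43 and the oxygen-sensing hydroxylase gene Egln3 by 0.59. Ldha, Pkm, Aldoa, Slc2a1 and Hif1a did not pass (-0.04, -0.07, -0.02, 0.03 and 0.21). The NAD salvage gene Nampt rose by 0.71. Of 33 cholesterol and fatty acid genes 2 were higher (1 without each of curdlan array 2 and pairs 2 and 3) and 8 lower (15 with the replicate block, 3 to 5 without each of untreated arrays 1, 2 and 3, curdlan arrays 1 and 3 and pairs 1, 2 and 3). Fatty acid synthesis fell at Fasn (-0.70), at the elongase gene Elovl6 (-1.19, adjusted p 0.000131) and at the desaturase gene Fads1 (-0.73), while Acly and Srebf1 did not pass (-0.09 and -0.07). Of 30 respiratory chain genes 7 were lower (13 and 18 with the replicate number as a fixed and a random block, 15 after quantile normalisation, 16 in the brighter genes, 13 with an intensity trend, 2 to 4 without each of untreated arrays 1 and 3, curdlan arrays 1 and 2 and pairs 1, 2 and 3), and the falls were small, -0.42 for Ndufs1 and -0.26 for Sdhb. Among transporters the nucleoside carrier gene Slc28a2 rose by 1.31, and the amino acid carrier genes Slc38a1 and Slc1a5 fell (-0.73 and -0.47). Hif1a passed with the replicate number as a block (adjusted p 0.0393).

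Smaller groups are given with their shares, beside 7.27% higher and 12.3% lower over all genes. Some of these shares lay near or below that background. The genes named from these groups here, with differences on the log2 scale, were chosen after their values were seen. Of 28 measured G protein-coupled and purinergic receptor genes, 8 (28.6%) were higher and 5 (17.9%) lower. The 8 higher calls were 3 to 5 without each of curdlan array 1 and pairs 1, 2 and 3. The 5 lower calls were 3 without each of pairs 1 and 2. Of these receptor genes, Gpr84, a receptor of medium-chain fatty acids, rose by 0.85 and Gprc5a by 1.01. Of 23 ion channel and proton exchanger genes, 3 were higher (1 without pair 3) and 5 lower (2 to 3 without each of untreated arrays 1 and 2, curdlan arrays 2 and 3 and pairs 1, 2 and 3), and the intracellular chloride channel gene Clic4 rose by 0.61. Of 26 hypoxia and stress genes, 8 (30.8%) were higher and 2 (7.69%) lower. The 2 lower calls were 0 without pair 1 and 1 without each of pairs 2 and 3. The growth arrest gene Gadd45b rose by 1.45, and Ppp1r15a, which restores translation after stress, by 0.77.

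Of 21 Notch pathway genes, 3 (14.3%) were higher and 1 (4.76%) lower, the latter share being below that over all genes. The 3 higher calls were 1 without each of pairs 1, 2 and 3, and the lower call was lost without pair 2. With the replicate number as a block the counts were 5 and 2. The ligand gene Jag1 rose by 1.53. Of 28 iron, heme and antioxidant genes, 5 (17.9%) were higher and 2 (7.14%) lower, against 11 and 3 with that block. The 5 higher calls were 2 to 3 without each of untreated arrays 1 and 2, curdlan arrays 1 and 2 and pairs 1, 2 and 3. The 2 lower calls were 0 without pair 2 and 1 without pair 1. The transferrin receptor gene Tfrc fell by 0.92, a call lost without each of pairs 1 and 2 (adjusted p 0.0712 to 0.119). Of 34 lysosome and autophagy genes, 3 (8.82%) were higher and 2 (5.88%) lower, the first share near that over all genes and the second below it. The 2 lower calls were 4 with that block. They were 0 to 1 without each of untreated array 1, curdlan array 1 and pairs 1, 2 and 3. The autophagy receptor gene Sqstm1 rose by 0.55. Of 16 genes of tryptophan and NAD metabolism, 3 (18.75%) were higher and 2 (12.5%) lower, the latter share near that over all genes. The 3 higher calls were 1 without each of pairs 2 and 3. The 2 lower calls were 4 with that block. They were 0 without each of untreated arrays 2 and 3, curdlan arrays 1 and 3 and pairs 2 and 3. The kynurenine enzyme gene Kmo fell by 1.13, a call lost without each of untreated arrays 1, 2 and 3, curdlan arrays 1 and 3 and pairs 1, 2 and 3 (adjusted p 0.0548 to 0.15).

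Genes of cell division fell almost throughout. Of 54 mitosis and cytokinesis genes 52 were lower and 0 higher, with a median of -1.04, and the count was 31 without pair 3. Ncapg, a condensin subunit gene (on chromosome 5), gave 8.20, 8.79 and 8.28 untreated and 6.41, 7.51 and 6.86 with curdlan. Every treated value lay below every untreated one, and the gene fell by 1.49 (SE 0.25, adjusted p 0.0019). The spindle motor gene Kif11 (on chromosome 19) gave 9.26, 10.17 and 9.61 untreated and 7.79, 8.91 and 8.15 with curdlan (-1.40, adjusted p 0.00404). Its lowest treated value was in replicate 1. Kinetochore genes fell: Knl1 (-1.41), Nuf2 (-1.31) and Spc25 (-1.24). The checkpoint kinase gene Bub1 fell by 1.26, the mitotic kinase genes Plk1, Aurkb and Aurka fell (-1.16, -1.09 and -0.89), and the cohesin acetyltransferase gene Esco2 fell by 1.38. Hmmr, a spindle protein and hyaluronan receptor gene, and Depdc1a fell (-1.37 and -1.42). Of the cytokinesis genes, Anln (-1.44) lost its call without pair 3 (adjusted p 0.0509) and Cep55 (-1.23) without each of untreated array 2, curdlan array 1 and pair 3 (adjusted p 0.0572 to 0.0782). The centriole kinase gene Plk4 and the spindle gene Tpx2 did not pass (-0.21 and -0.21). Plk4 passed with the replicate number as a block (adjusted p 0.0433).

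Replication genes fell in 26 of 38, with 0 higher and a median of -0.52. With arrays left out the count was 10 to 17 without each of untreated array 2, curdlan array 1 and pairs 1, 2 and 3. The primase genes Prim1 and Prim2 fell (-0.97 and -0.66), as did the ribonucleotide reductase gene Rrm1 (-0.83), the checkpoint mediator gene Clspn (-0.95) and the helicase subunit gene Mcm4 (-0.55). Pcna, Cdt1 and Cdc6 did not pass (-0.23, -0.01 and -0.47). Of 26 DNA repair genes 19 were lower and 0 higher (12 in a fit of the brighter genes only, 11 to 12 without each of untreated array 2, curdlan array 1 and pairs 1 and 3). The DNA glycosylase gene Neil3 (on chromosome 8) gave 7.92, 8.91 and 8.17 untreated and 6.19, 7.37 and 7.00 with curdlan (-1.48, adjusted p 0.00397). The replication fork repair genes Brca2 and Rad51ap1 fell (-0.92 and -0.91), and so did the checkpoint kinase gene Chek2 (-1.02). Cell cycle regulators went both ways, 8 of 34 higher (4 without each of pairs 1 and 2), and 11 lower (5 without pair 3 and 7 without each of untreated array 2 and pair 1). The MYC antagonist gene Mxd1 rose by 1.11 and the CDK inhibitor gene Cdkn2b by 0.78, while the inhibitor gene Cdkn2c fell by 1.16 and the cyclin genes Ccna2 and Ccne1 fell (-1.15 and -0.54). Myc did not pass (-0.41). Cdc6 and Myc passed with the replicate number as a block (adjusted p 0.00318 and 0.00122).

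Promoters of cell cycle genes are known to hold the cell cycle genes homology region (CHR), TTTGAA, which is bound by the DREAM and MuvB complexes. The letters TTTGAA on either strand were found in 72.0% (36 of 50) of the promoters of the mitosis list, against 17.9% of all promoters and 12.8% of those of the replication list. Over all genes called lower the share was 15.0%, against 15.1% of genes not called, and among genes that rose it was 25.6% of those higher by over 2 and 47.4% (9 of 19) of the PYHIN and Schlafen promoters. With a CCAAT box in the same window the shares were 54.0% in the mitosis list and 6.95% of all promoters. They were 4.65% of genes higher by over 2 and 10.5% of the PYHIN and Schlafen promoters. The whole promoter of Kif11 and stretches of 4 other mitosis genes with large falls are shown, with the motif in capitals. They were picked among promoters that hold the motif. Those of Nuf2 (-1.31) and Bub1 (-1.26) held no match.
Kif11 (chr19:37376132-37376431, plus strand): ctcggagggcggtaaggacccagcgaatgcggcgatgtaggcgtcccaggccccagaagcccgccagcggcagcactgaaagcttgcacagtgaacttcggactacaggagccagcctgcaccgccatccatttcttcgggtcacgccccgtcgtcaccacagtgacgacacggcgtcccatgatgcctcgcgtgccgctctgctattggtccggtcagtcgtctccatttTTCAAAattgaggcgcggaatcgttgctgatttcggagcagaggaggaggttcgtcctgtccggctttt
Ncapg (chr5:45669868-45669927, plus strand): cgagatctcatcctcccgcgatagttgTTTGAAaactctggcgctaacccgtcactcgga
Hmmr (chr11:40733397-40733456, minus strand): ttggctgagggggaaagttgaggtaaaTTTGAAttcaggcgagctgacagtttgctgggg
Depdc1a (chr3:159495390-159495449, plus strand): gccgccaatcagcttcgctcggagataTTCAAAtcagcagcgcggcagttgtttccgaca
Knl1 (chr2:119047109-119047168, plus strand): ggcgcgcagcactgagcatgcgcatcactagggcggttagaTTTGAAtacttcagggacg
The motif starts within 32 bases of the listed start in all 5, at 19, 30 and 16 bases before it in Kif11, Ncapg and Depdc1a and at bases 9 and 32 after it in Hmmr and Knl1. In Kif11 and Depdc1a it is on the opposite strand and reads TTCAAA. Its position in the other matching promoters was not described. No test was made, and the lists were chosen with the falls known.

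Genes of ribosome production fell. Of 34 ribosome biogenesis genes 30 were lower and 0 higher, with a median of -0.54, and the count was 12 without pair 1. Dkc1, the pseudouridine synthase gene of small nucleolar RNA particles (on chromosome X), gave 8.97, 8.81 and 8.68 untreated and 7.38, 7.67 and 7.57 with curdlan. It fell by 1.28, with no overlap (adjusted p 0.000325). The RNA polymerase I subunit genes Polr1a and Polr1b fell (-0.84 and -0.81), as did the processing factor genes Rrp1b, Utp20 and Nolc1 (-0.93, -0.83 and -0.70). Rpp25, which encodes a subunit of the RNases P and MRP that cut tRNA and rRNA precursors, gave 8.21, 7.80 and 8.10 untreated and 6.41, 6.38 and 6.71 with curdlan (-1.54, adjusted p 0.00126). The tRNA synthetase genes fell in 11 of 18 (6 to 7 without each of untreated array 2 and pairs 1, 2 and 3), with Iars, Farsb and Vars the firmest (-0.72, -0.55 and -0.54). The exception was Wars, the tryptophan enzyme gene that interferon induces (0.51), whose call was lost without each of untreated array 1, curdlan arrays 2 and 3 and pairs 1, 2 and 3 (adjusted p 0.0537 to 0.0981). Of 19 cytosolic ribosomal protein genes 0 were higher and 1, Rps18, lower (-0.21), a call lost without each of untreated arrays 2 and 3, curdlan arrays 1, 2 and 3 and pairs 1, 2 and 3 (adjusted p 0.0646 to 0.263). The 19 differences ranged from -0.45 to -0.01, with a median of -0.11 against 0.02 over all genes, and the difference from the ribosome biogenesis list was not tested.

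**Figure D3:**
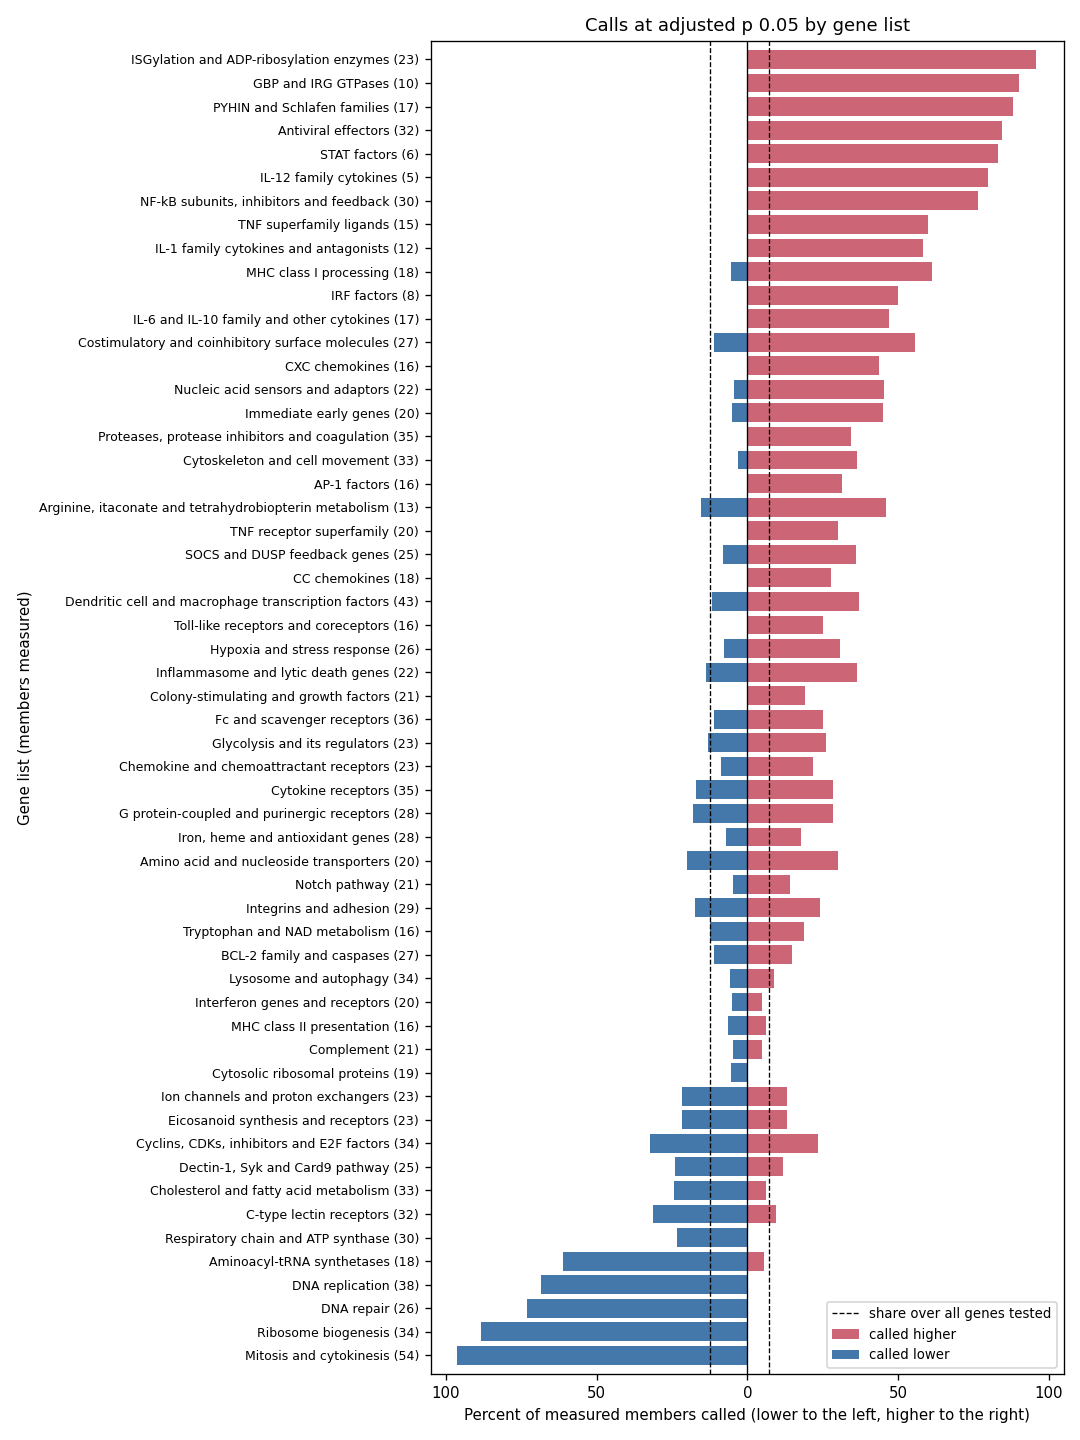
Percent of the measured members of each gene list called higher (red, to the right) or lower (blue, to the left) with curdlan at an adjusted p of 0.05, lists ordered by the difference, members measured in parentheses. Dashed lines mark the shares over all 19937 genes, 7.27% higher and 12.3% lower. The ISGylation, GTPase, PYHIN and Schlafen and antiviral effector lists stand at the top. Mitosis, ribosome biogenesis, repair and replication stand at the bottom. Interferon genes and receptors, at 5% higher and 5% lower, lie between.

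Other large falls were of genes with varied roles, among which Slc9a9, Kcnn3 and Cnr2 are members of the channel and receptor lists counted above. Slc9a9, an endosomal sodium-proton exchanger gene (on chromosome 9), gave 8.90, 9.20 and 8.72 untreated and 6.89, 7.13 and 7.00 with curdlan. It had the smallest adjusted p among the 30 largest falls (-1.93, adjusted p 3.06e-06). Ipcef1 gave 6.51, 6.73 and 6.35 untreated and 4.99, 5.20 and 5.17 with curdlan. The treated mean lay below the lower quartile of the arrays, so the fall is written as at least 2.66-fold. Gapt, an adaptor gene of blood cells, gave 11.01, 11.20 and 10.93 untreated and 9.71, 9.95 and 9.83 with curdlan (-1.22). The orphan receptor gene Gpr82 and the calcium-binding protein gene Kcnip3 fell (-1.38 and -1.27), as did the linker histone gene H1f5 (-1.25) and Scel, which encodes sciellin (-1.23). Kcnn3, a calcium-activated potassium channel gene, fell by 1.20 and the cannabinoid receptor gene Cnr2 fell by 0.95. Nxpe5 (-1.29) lost its call without each of untreated array 1, curdlan arrays 2 and 3 and pairs 1, 2 and 3 (adjusted p 0.0753 to 0.131), and Nanos1 (-1.21) without each of pairs 1 and 2 (adjusted p 0.081 to 0.124).

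**Figure D4:**
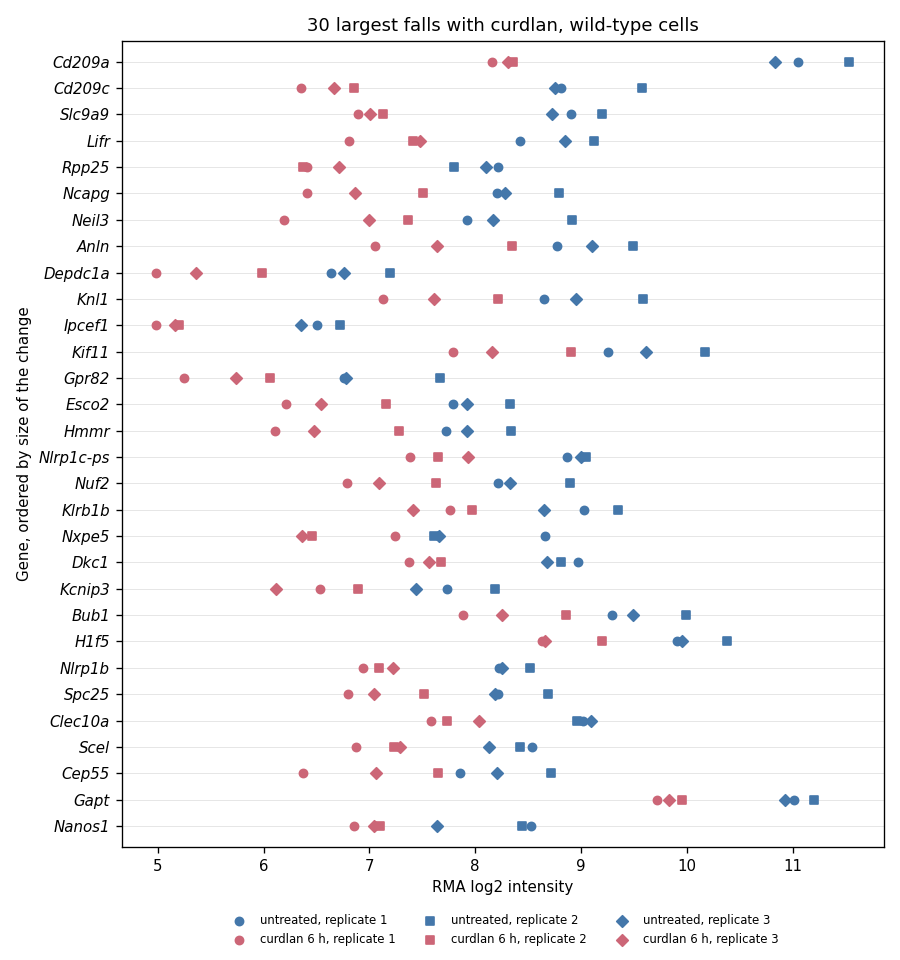
RMA log2 intensity (horizontal axis) of the 30 genes with the largest fall among those whose groups do not overlap, in each of the 6 wild-type arrays (blue untreated, red curdlan for 6 h, marker shape the replicate number). The separation in each row was fixed by that choice, and the mean log2 difference runs from -2.87 for Cd209a to -1.21 for Nanos1.

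The array also carries microRNA genes, whose probe sets lie over the hairpin and so read precursor or host transcript rather than the mature strand. Of 300 measured, 10 (3.33%) were higher and 5 (1.67%) lower, both below the shares over all genes (7.27% and 12.3%). The genes shown were chosen after their values were seen: the largest rise, Mir155, and the pairs Mir221 with Mir222 and Mir181a-1 with Mir181b-1, neighbours that share a seed. Mir155, a microRNA gene that NF-kB and AP-1 induce in activated myeloid cells, gave 7.86, 8.73 and 8.82 untreated and 10.39, 10.48 and 10.55 with curdlan. The treated arrays lay closer together than the untreated ones and all above them (2.00 ± 0.26, SE, adjusted p 0.00043). Mir221 and Mir222 rose by 0.68 and 0.66 (adjusted p 0.0309 and 0.0226). Mir221 lost its call without each of untreated arrays 2 and 3, curdlan array 1 and pairs 1, 2 and 3 (adjusted p 0.0779 to 0.141), and Mir222 without each of untreated arrays 2 and 3, curdlan array 1 and pairs 1, 2 and 3 (adjusted p 0.0688 to 0.109). Mir181a-1 gave 6.48, 6.59 and 6.49 untreated and 5.44, 5.87 and 6.29 with curdlan, and Mir181b-1 8.79, 8.78 and 8.83 untreated and 7.88, 7.96 and 8.38 with curdlan. Both fell (-0.65 and -0.73, adjusted p 0.024 and 0.00156), least in replicate 3, and Mir181a-1 lost its call without each of untreated arrays 1, 2 and 3, curdlan arrays 1 and 2 and pairs 1 and 2 (adjusted p 0.0573 to 0.139) and in a fit of the 6 wild-type arrays alone (adjusted p 0.0524). The mature RefSeq sequences follow with the seed, bases 2 to 8, in capitals.
mmu-miR-155-5p (chr16:84714143-84714165, plus strand): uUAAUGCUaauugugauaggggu
mmu-miR-221-3p (chrX:19146307-19146329, minus strand): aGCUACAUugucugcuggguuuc
mmu-miR-222-3p (chrX:19146901-19146923, minus strand): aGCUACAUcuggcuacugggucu
mmu-miR-181a-5p (chr1:137966468-137966490, plus strand): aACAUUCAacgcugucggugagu
mmu-miR-181b-5p (chr1:137966650-137966673, plus strand): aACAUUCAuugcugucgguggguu
The seed of miR-155-5p is shared with none of the others shown, miR-221-3p and miR-222-3p have the seed GCUACAU in common, and both miR-181 strands have ACAUUCA.

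The size of the response varied among the replicate numbers. Same-numbered untreated and treated arrays deviated together from their group means, at r of 0.45, 0.37 and 0.40 across genes. Over the 1449 genes called higher the median difference within pairs 1, 2 and 3 was 0.48, 0.46 and 0.43, and over the 2450 called lower it was -0.49, -0.35 and -0.31. Il2 rose by 2.23, 1.86 and 1.21 in pairs 1, 2 and 3 and Itgb8 by 3.52, 3.70 and 3.17. Kif11 changed by -1.47, -1.26 and -1.46 and Polr1a by -1.04, -0.76 and -0.72. Of the interferon-induced genes, Ifit1 stood at 3.76, 3.56 and 3.46 and Irf7 at 3.26, 3.35 and 3.43.

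**Figure D5:**
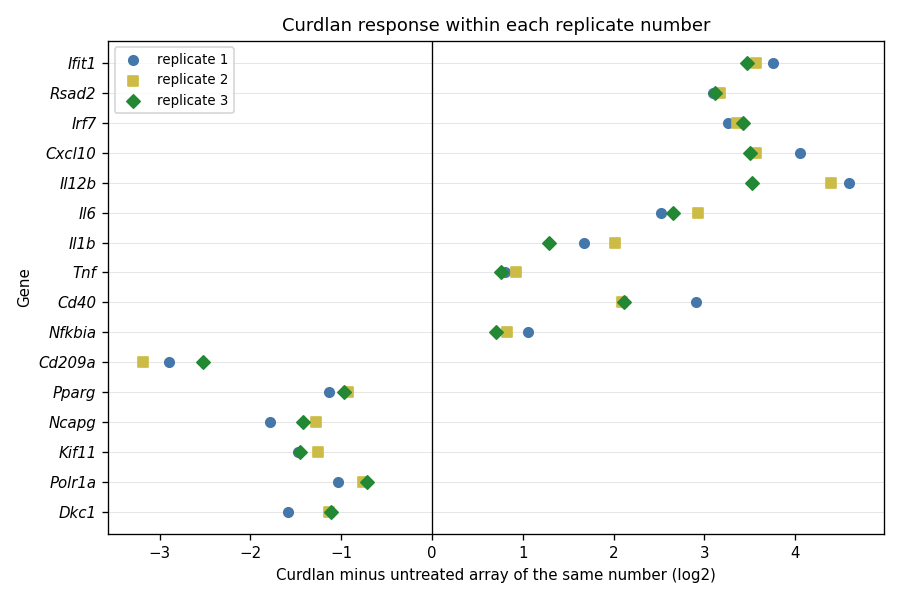
Log2 difference between the curdlan and the untreated array of the same replicate number (horizontal axis) for 16 genes (vertical axis), with marker and colour giving the number. All 3 differences share a sign within each gene. The genes were chosen with their changes known, and a shared sign is fixed in advance where the groups do not overlap. The differences of Rsad2 run from 3.10 to 3.17 and those of Il12b from 3.52 to 4.59.

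The response of wild-type cells was set against that of IL-2 knockout cells by the interaction of curdlan with genotype in the same limma fit. It passed in 0 of 19937 genes (0.0%) at an adjusted p of 0.05, with 552 genes at an unadjusted p under 0.05 and a smallest adjusted p of 0.357, that of Il2, the disrupted gene. Il2 rose by 1.77 in wild-type cells and changed by -0.13 in knockout cells. With the replicate number as a fixed or a random block the count was 0 too, and it reached 3 at most with wild-type arrays left out (without pair 3). With 3 arrays a group this does not show that the responses are alike. For the genes described here the knockout differences, from their own untreated arrays, can be read beside those of wild type: 2.72 for Irf7 against 3.35 in wild type, 3.14 for Il12b against 4.17, 0.90 for Nfkbia against 0.86, -1.84 for Cd209a against -2.87 and -1.18 for Ncapg against -1.49.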

How the data were processed

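The deposited values are log2 expression values per probe set of an Affymetrix Mouse Gene 1.0 ST array, summarised and normalised by the authors with RMA, per the submitters' processing notes. The RMA version and its settings are not stated in them. The table holds 34760 probe sets on 12 arrays. Of these, 21640 have 1 gene symbol in the platform annotation, 1321 have several and 11799 have none listed; symbols were updated through the Entrez identifier for 21553. For the 954 genes with more than 1 probe set, 1 was kept, which left 19937 genes.

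The contrast of curdlan and untreated wild-type arrays was taken from a limma fit (version 3.58.1, R 4.3.3) of 4 group means to all 12 arrays, with empirical Bayes moderation and 8 residual degrees of freedom. P-values are two-sided and adjusted by Benjamini-Hochberg over all genes, at a threshold of 0.05. The same fit gave the interaction with genotype. The number of arrays limits the precision. A fold is written as a lower bound where a group's mean lies under every array's lower quartile. That quartile is not a measured detection limit, and such a bound leaves out the SE.

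Same-numbered arrays deviated together (r of 0.45, 0.37 and 0.40, against -0.35 to 0.06 for other pairings), and the number was taken as a replicate block in an alternative fit. Deviations from a group mean cancel out within a group, so positive same-numbered values push the other pairings down, and these add no separate support. Named genes were Il2 and Clec7a, the 30 largest rises and falls without overlap, and the members of each list with the largest changes, besides members needed to account for a list by role. The members and lists were chosen with earlier results of these data known. Alternatives were a fit of the 6 wild-type arrays, fixed and random blocks, genes above the median level, quantile normalisation, centring on the median, the mean of probe sets, an intensity trend, and leaving out each wild-type array or pair. Promoter and microRNA sequences are RefSeq's on GRCm38.p6.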

Additional observations from a re-analysis of the deposited data

How the results depend on the processing

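The 3899 calls, 1449 higher and 2450 lower, stayed within 1.5 times under 8 settings that kept all arrays or all wild-type arrays. With the replicate number as a fixed replicate block there were 5258 calls (1983 higher and 3275 lower), of which 3831 were among the reported calls and 1427 were not, while 68 reported calls were lost. A random block gave 2042 higher and 3256 lower. Quantile normalisation gave 1604 and 2222, and a fit of the 6 wild-type arrays 1347 and 2225. Leaving out single wild-type arrays or pairs gave 1841 to 3373 calls, 787 to 1286 higher and 979 to 2087 lower, the lowest totals being those without pair 1 (862 higher and 979 lower) and pair 2 (787 and 1172). The interaction with genotype gave 0 to 3 genes in these fits and 0 in the others. Of 381 genes named in the text, 302 passed, and 263 of these kept the call in every leave-out. Values that did not pass changed sign in some fits: Bbc3 ran from -0.010 (without curdlan array 1) to 0.12 over the leave-outs, Cd209e from -0.12 (without pair 3) to 0.16 and Il12a from -0.056 (without pair 1) to 0.37, and Irf3 stood at 0.0076 after quantile normalisation. In all, 37 list counts moved by over 1.5 times in some setting that left out no array. The cause of these shifts was not tested. Probe sets near background limit Ifnb1 and other dim genes.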

Other observations

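Gene families outside the lists were looked at after their values were seen, and carry no test of their own. All 3 Phf11 genes measured, plant homeodomain finger genes on chromosome 14, were higher, with Phf11d at 7.91, 7.70 and 7.87 untreated and 10.30, 10.30 and 10.42 with curdlan (a rise of 2.51, adjusted p 9.54e-07) and Phf11a and Phf11c higher by 2.45 and 1.30. Of 19 Ms4a genes, which encode membrane-spanning proteins related to CD20, 7 were higher and 0 lower. The largest was Ms4a4c, at 8.78, 9.22 and 8.55 untreated and 11.59, 11.53 and 11.50 with curdlan (2.69, adjusted p 0.000197). Of 59 Trim genes, a family of ubiquitin ligases with antiviral members, 13 (22.0%) were higher and 5 (8.47%) lower, against 7.27% and 12.3% of all genes. Trim25, the ligase gene of RIG-I, rose by 0.64 and Trim21, an antibody receptor gene, by 0.61, a call lost without pair 3 (adjusted p 0.0572).

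Of 41 histone genes 18 (43.9%) were lower and 0 higher, and of 77 genes of mitochondrial ribosomal proteins 38 (49.4%) were lower and 1 (1.3%) higher, with a median of -0.22. Among the mitochondrial falls, Mrpl15 gave 9.26, 9.27 and 9.25 untreated and 8.82, 8.82 and 8.96 with curdlan (-0.39, adjusted p 0.00173). The variant histone gene H2ax, whose product marks broken DNA, gave 9.03, 9.11 and 8.94 untreated and 8.27, 8.60 and 8.51 with curdlan (-0.57, adjusted p 0.00146). Of 1027 olfactory receptor genes, which these cells are not known to use, 10 (0.974%) were higher and 2 (0.195%) lower.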
